A study of Mus musculus with 4 samples.

Results

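A divergent promoter is the stretch between a pair of neighbouring genes that lie on opposite strands and are read away from each other. The array design of this study marks such stretches as a class of their own, and they were examined here on the autosomes, as signal from genomic DNA of intestine at 32 and at 3 months of age. Autosomal probes of this class that carried the same pair of gene names and lay at most 1000 bp apart were joined into regions, and a region was kept when every probe in it had the class. This gave 1546 regions with 4797 probes and 1122 names of pairs, out of 19141 regions with 82850 probes in all. No region of the class mixed it with another. At least 2 usable probes, that is, probes well above background at 32 or at 3 months and without an outlier mark, were present in 1004 of the 1546 regions. Of the others, 454 had 1 usable probe and 88 had none, and these gave no value.

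The samples were 32-month-old and 3-month-old C57BL/6 mice, an inbred strain, with no other allele, treatment or agent named. DNA of each age was hybridised to 2 custom oligonucleotide arrays, the first covering chromosomes 1 to 8 with a few regions of chromosomes 9 and 17, and the second covering chromosomes 9 to 19, X and Y. The 32-month DNA carried the red dye Cy5 and the 3-month DNA the green dye Cy3 on both arrays, without an array of exchanged dyes and with a single sample of each age per array, so age and dye cannot be told apart. The sources used here do not give the number of animals in a sample, their sex, the genome build of the positions or the step that selects DNA by methylation. Values are therefore reported as signal and not as methylation. Genomic DNA holds the same genes in every cell type, so marker genes could not check the tissue label. No test between ages is possible with 1 sample per age, and an SD here measures how the probes within a region scatter, all of them read from the same DNA.

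In mammals such paired promoters are common, often sit in CpG islands, and serve many housekeeping genes of DNA repair, histone, ribosomal and mitochondrial function. Their CpG sites, like those of most CpG islands, usually carry little methylation in healthy tissue, and some islands gain methylation with age in intestine. The pair may share one regulatory stretch and be used together, or the starts may lie far apart and be used separately.

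Printed here are the probes of called regions with the largest differences, among those named here with at least 3 usable probes, because the values rest on them. They are 45 to 60 bases long, are written 5′ to 3′ as the array files give them, and have CpG dinucleotides in capitals. Acadvl, which encodes the enzyme that starts mitochondrial oxidation of very long-chain fatty acids, and Dlg4, which encodes the synaptic scaffold PSD-95, share a region on chromosome 11 from 69834088 to 69834471. None of its 3 probes holds a CpG.
Acadvl/Dlg4 probe 1: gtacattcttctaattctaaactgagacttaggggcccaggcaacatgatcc
Acadvl/Dlg4 probe 2: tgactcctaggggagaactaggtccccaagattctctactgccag
Acadvl/Dlg4 probe 3: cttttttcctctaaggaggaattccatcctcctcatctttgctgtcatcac

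Ppp2r5d, a regulatory subunit of protein phosphatase 2A, and Pex6, an ATPase needed to build peroxisomes, share a region on chromosome 17 from 46168249 to 46169066. Its 5 probes hold 4 CpGs in all, and the fifth probe was not usable.
Ppp2r5d/Pex6 probe 1: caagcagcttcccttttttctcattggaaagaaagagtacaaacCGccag
Ppp2r5d/Pex6 probe 2: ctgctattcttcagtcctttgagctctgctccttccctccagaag
Ppp2r5d/Pex6 probe 3: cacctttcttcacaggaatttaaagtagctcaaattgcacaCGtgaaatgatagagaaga
Ppp2r5d/Pex6 probe 4: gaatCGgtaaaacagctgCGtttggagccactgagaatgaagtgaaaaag
Ppp2r5d/Pex6 probe 5: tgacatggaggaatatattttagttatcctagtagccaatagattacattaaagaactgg

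Evc and Evc2 encode partner proteins at the base of the primary cilium that act in Hedgehog signalling, and loss of either causes Ellis-van Creveld syndrome in people. Their region lies on chromosome 5 from 37625275 to 37626698 and has 8 probes, all usable.
Evc/Evc2 probe 1: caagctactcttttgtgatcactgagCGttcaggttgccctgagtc
Evc/Evc2 probe 2: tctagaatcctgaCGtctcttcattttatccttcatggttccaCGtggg
Evc/Evc2 probe 3: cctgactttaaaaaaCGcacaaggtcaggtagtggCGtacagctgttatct
Evc/Evc2 probe 4: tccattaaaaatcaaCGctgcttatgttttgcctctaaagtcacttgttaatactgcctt
Evc/Evc2 probe 5: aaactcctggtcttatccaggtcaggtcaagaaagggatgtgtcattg
Evc/Evc2 probe 6: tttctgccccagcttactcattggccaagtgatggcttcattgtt
Evc/Evc2 probe 7: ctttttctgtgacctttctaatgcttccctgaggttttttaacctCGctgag
Evc/Evc2 probe 8: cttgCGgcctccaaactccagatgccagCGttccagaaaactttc

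For lower signal at 32 months, Ptpru, a receptor-type tyrosine phosphatase, and Mecr, an enzyme of mitochondrial fatty acid synthesis, share a region on chromosome 4 from 131110611 to 131111202.
Ptpru/Mecr probe 1: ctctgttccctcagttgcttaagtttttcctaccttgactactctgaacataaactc
Ptpru/Mecr probe 2: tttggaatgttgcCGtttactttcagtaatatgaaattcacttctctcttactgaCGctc
Ptpru/Mecr probe 3: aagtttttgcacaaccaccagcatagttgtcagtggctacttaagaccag
Ptpru/Mecr probe 4: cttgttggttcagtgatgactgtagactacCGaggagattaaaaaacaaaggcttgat

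Gemin7, part of the complex that assembles spliceosomal RNPs, and the zinc finger gene Zfp296 share a region on chromosome 7 from 18735635 to 18736290, whose inner probes hold more CpGs than any other probe printed here.
Gemin7/Zfp296 probe 1: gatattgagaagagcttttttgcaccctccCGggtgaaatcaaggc
Gemin7/Zfp296 probe 2: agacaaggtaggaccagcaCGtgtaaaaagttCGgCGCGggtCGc
Gemin7/Zfp296 probe 3: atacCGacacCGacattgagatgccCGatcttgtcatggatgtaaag
Gemin7/Zfp296 probe 4: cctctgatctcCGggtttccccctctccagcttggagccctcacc

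Probes of the class were well above background in 72.6% of cases at 32 months and 71.0% at 3 months for array 1, and in 72.3% at 32 months and 72.4% at 3 months for array 2. On the second array the shares at 32 months were 65.9% of probes of the plain promoter class and 80.6% of probes inside genes. The median signal over the 1004 measured regions was 411 at 32 months and 406 at 3 months, in the scanner's processed intensity, where a region's signal is the geometric mean over its usable probes. The first array had 510 at 32 months and 512 at 3 months over 509 regions, and the second 320 at 32 months and 317 at 3 months over 495 regions. Other autosomal regions on the first array had medians of 629 at 32 months and 632 at 3 months. Promoter-only regions there had 610 at 32 months and 605 at 3 months, so divergent regions were dimmer than both on that array. On the second array other regions had 364 at 32 months and 367 at 3 months, above the divergent ones. Promoter-only regions of the second array, with 306 at 32 months and 319 at 3 months, were close to the divergent ones. Signal spanned 54.0 to 85811 at 32 months among divergent regions of the second array, and 59.9 to 35513 at 3 months. Mean probe signals over background were modest on both arrays, with medians of 203 and 135 at 32 months against 107 for negative controls on either array. At 3 months the medians were 113 and 71.8, against 80.0 and 61.7 for negative controls.

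Each probe's ratio is the log2 of its signal at 32 months over that at 3 months, less the median of all positioned probes on its array. That median was 0.0044 for the first array and -0.14 for the second. The value of a region is the median over its usable probes. Across the 1004 divergent regions the median was 0.0083, with quartiles of -0.16 and 0.24, and 837 regions, or 83.4%, lay within 0.5 of 0. The other 13832 autosomal regions had a median of 0.017, or 0.016 when weighted to the brightness of the divergent ones, and 86.8% lay within 0.5 of 0. The offset between arrays was larger than that between classes. On the first array the median was -0.034 for divergent and -0.032 for other regions, and on the second it was 0.078 for divergent and 0.090 for other regions.

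**Figure D1:**
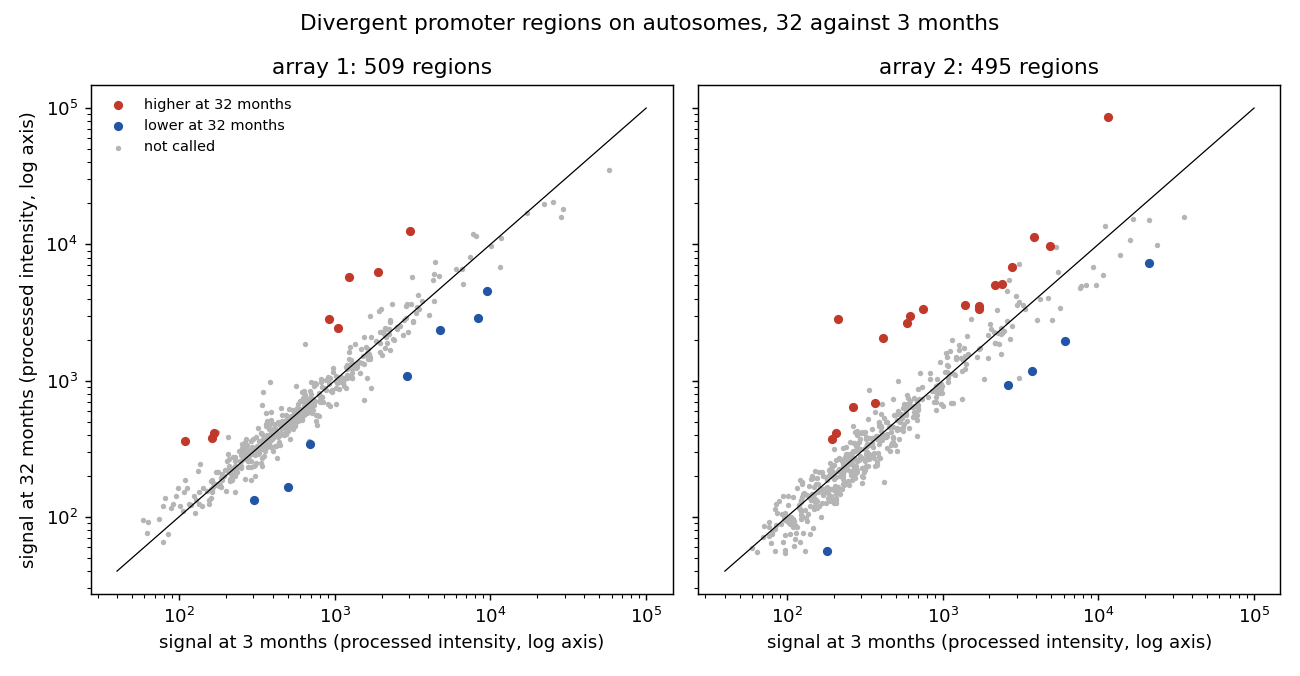
Signal of each of the 1004 measured divergent promoter regions at 32 months (vertical, log axis) against 3 months (horizontal, log axis), in processed intensity, for the first array (509 regions) and the second (495 regions). Each point is a region and the line marks equal signal; the 26 regions called higher at 32 months lie above the line, the 12 called lower lie below it, and grey regions met neither rule.

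A region was called higher when its median log2 ratio was at least 1, a 2-fold difference, with no usable probe at or under 0. For a lower call the same held with signs turned. At 32 months 26 divergent regions were higher and 12 were lower, which is 2.59% and 1.20% of those measured. Over all 15353 measured regions of both arrays 2.01% were called higher and 0.632% lower, and over the other autosomal regions 2.01% and 0.470%. The share called higher was therefore near the background. The split between directions depended on processing. Without centring the counts were 19 higher and 14 lower. After normexp background correction they were 29 higher and none lower. That correction does not scale the dye signals and adds an offset to each, and its ratios were also centred on the array median. The lower calls below thus hold for the scanner's processed signals and not for that correction.

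Calls were most frequent in the brightest regions, so classes were set side by side within 10 bins of brightness on each array. The 185 divergent regions in the brightest 2 bins held 17 of the 26 higher and 8 of the 12 lower calls. That is 9.19% higher and 4.32% lower, against 7.23% and 1.44% of the other autosomal regions in those bins. Other regions weighted to the brightness of the divergent ones had 1.99% called higher and 0.463% called lower, equal to 19.9 and 4.65 regions among 1004, beside the 26 and 12 found. With bins also split by the number of usable probes these shares were 2.06% and 0.571%. Before weighting, 3.69% of 2007 regions made of promoter probes alone were called higher and 0.448% lower, and 2.13% and 0.662% of 2114 regions made of probes inside genes. Promoter-only regions had a weighted 3.80% called higher and 0.439% lower, beside 2.59% and 1.20% of divergent regions. At a 1.5-fold threshold the order of the higher shares turned, with 6.77% of divergent and 6.45% of weighted promoter-only regions. The difference between these classes was not tested. Inside-only regions had a weighted 1.78% higher and 0.622% lower.

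On each array the share of lower calls was larger in divergent regions than in both sets beside them. On the first, 8 of 509 divergent regions were higher and 7 lower, or 1.57% and 1.38%, against weighted shares of 1.15% and 0.458% of other regions and 2.56% and 0.321% of promoter-only regions. On the second, 18 of 495 were higher and 5 lower, or 3.64% and 1.01%, against 2.85% and 0.469% of other regions and 5.08% and 0.560% of promoter-only regions. These shares compare regions within single samples, and whether they differ between animals cannot be told.

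**Figure D2:**
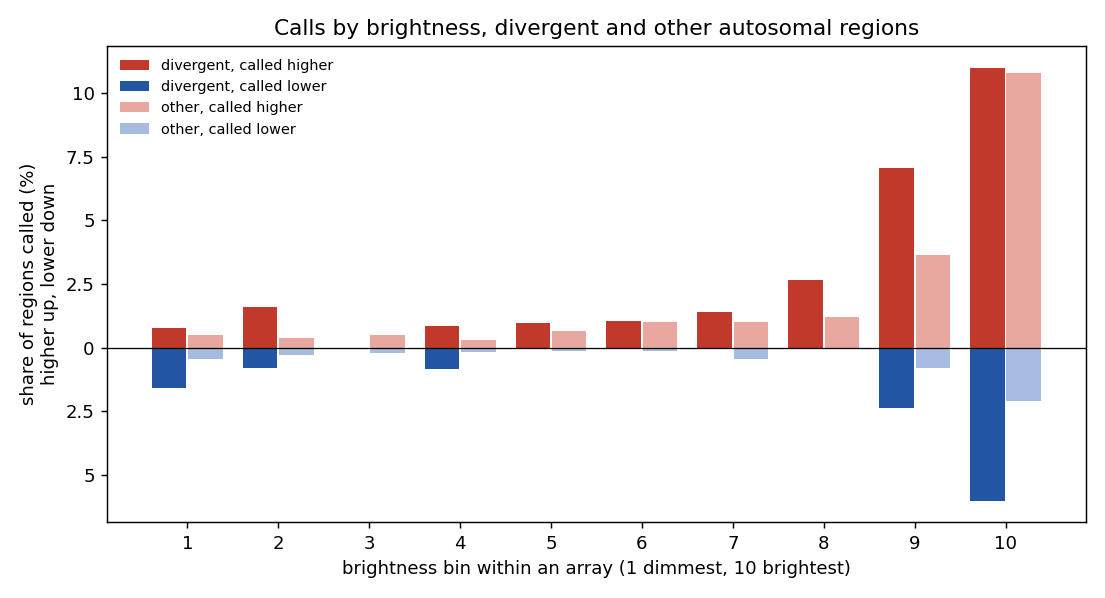
Share of regions called higher (upward) and lower (downward) at 32 months, in percent, in each of 10 brightness bins per array, both arrays together, with divergent promoter regions in dark bars to the left of the other autosomal regions in pale bars. In the brightest bin 11.0% of 100 divergent regions were called higher and 6.00% lower, against 10.8% and 2.10% of 1384 other regions.

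The highest divergent regions belonged to pairs of varied known roles. Acadvl/Dlg4 was the brightest divergent region at 32 months, with probe signals of 173000, 87800 and 41600 at 32 months against 28000, 12300 and 4530 at 3 months. All 3 probes were higher at 32 months, by 2.77, 2.97 and 3.34 on the log2 scale, so the region stood at 2.97 ± 0.29, a 7.86-fold difference. Ppp2r5d/Pex6 had a median log2 ratio of 2.61 ± 0.95 over 4 probes, or 6.10-fold. Its first 3 probes had 1230, 23500 and 14800 at 32 months, against 241, 3060 and 2460 at 3 months. The fourth was dimmer, with 113 at 32 months against 65.3 at 3 months and a log2 ratio of 0.93, and the fifth was at background at both ages. With that dim probe kept, at -0.09, the region lost its call.

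Evc/Evc2 was higher at 32 months over its whole length. Its 8 probes had signals between 4290 and 8180 at 32 months, against 802 to 2930 at 3 months, read from 1 sample of each age. The median log2 ratio was 2.43 ± 0.66, or 5.38-fold, and the eighth probe, nearest to the end of the region, had the smallest difference with 0.85. Ccdc47, an endoplasmic reticulum protein that helps insert membrane proteins, and the RNA helicase gene Ddx42 shared a region whose probes scattered less than those of the other called regions. Its 3 probes had 810, 7400 and 4450 at 32 months against 167, 1470 and 942 at 3 months, and their ratios of 2.42, 2.47 and 2.38 gave 2.42 ± 0.046, or 5.34-fold. This region is also CpG-rich, with 5, 1 and 5 CpGs in its probes.

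P3h4/Fkbp10 pairs genes that act on collagen in the endoplasmic reticulum, a component of the collagen hydroxylation complex and a prolyl isomerase. It had a median log2 ratio of 2.26 ± 1.31 over 4 probes, 4.78-fold, and 3 of its probes were well above background at 3 months. Sox18, a transcription factor of blood and lymphatic endothelium, and Tcea2, a transcription elongation factor, shared a region at 2.01 ± 0.42. Its probes had 28100, 33200, 17500 and 1520 at 32 months, against 4650, 8570, 4150 and 510 at 3 months, and all 4 were higher by at least 1.57. Fkbp1b/BC068281, the first a subunit of the ryanodine receptor calcium channel complex, was higher in each of 8 probes, between 1.04 and 1.88, with a median of 1.51 ± 0.29 or 2.85-fold.

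Other called regions owed their median to part of their probes. Pcnt, which encodes the centrosome scaffold pericentrin, shares with the transcript 2610028H24Rik a region at 2.08 ± 2.53. Its middle probes had 2120 and 1950 at 32 months against 75.0 and 138 at 3 months, while its outer probes, at 178 and 173000 at 32 months and 171 and 182000 at 3 months, differed by at most 0.20. This region lost its call without centring or when centred on usable probes. Cpxm1/Tmem239 at 1.66 ± 1.60 had 46000 and 49300 in its first probes at 32 months against 5380 and 6630 at 3 months, with ratios of 0.43 and 0.031 in the others. The splicing factor gene Srsf2 and the transporter-like gene Mfsd11 shared a region at 1.27 ± 1.42, whose probes stood at 2.33, 2.84, 0.074 and 0.22, and it lost its call without centring, after loess or when centred on usable probes. In Zcchc3/6820408C15Rik the last of 3 probes was at 0.0060 beside a median of 1.67, and the others were not well above background at 3 months. Cpxm1/Tmem239 and Zcchc3/6820408C15Rik lost their calls under normexp correction. Car5a, a mitochondrial carbonic anhydrase, and Banp, a nuclear protein that binds CpG-containing DNA, had a dim region at 1.52 ± 1.53, with 361 at 32 months against 110 at 3 months. With dim probes kept, with normexp correction or with probes required to be above background at both ages, Car5a/Banp lost its call. These regions pass the calling rule with probes that are only just above 0, as the plot of probes shows.

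Among regions with 2 usable probes was that of Creb3l3, a transcription factor of lipid metabolism in liver and intestine, and Map2k2, which encodes the kinase MEK2. Its probes had 1950 and 4110 at 32 months against 65.4 and 694 at 3 months, and the first was not well above background at 3 months. The median log2 ratio of 3.87 ± 1.65 therefore rests in part on a background-level signal and has no exact fold, and the probe measured at both ages stood at 2.71. The region was left with too few probes when signal was required at both ages. Uqcrh, the hinge subunit of respiratory complex III, and Lrrc41 followed at 1.71 ± 0.60. The endoplasmic reticulum chaperone gene Hsp90b1 and Ttc41 had 17200 and 7390 at 32 months against 6990 and 2150 at 3 months, at 1.68 ± 0.34. Thap2/Zfc3h1 had 1.21 ± 0.46, Lyrm7/Hint1 1.18 ± 0.74 and the histone pair H2ac6/H2bc4 1.14 ± 0.061. Lyrm7/Hint1 lost its call with dim probes kept and H2ac6/H2bc4 without centring. The remaining 8 called regions, several of them named only after their values were seen, lay between 1.04 and 1.27 and included Pcgf2/Psmb3, Sf3b2/Gal3st3, Aldh6a1/Lin52, Bet1l/Ric8a, Mob3a/Izumo4, Grin2d/Kdelr1, Il9r/Snrnp25 and Nprl3/Hba-x. Among these Pcgf2 encodes a Polycomb protein and Psmb3 a proteasome subunit. Without centring 19 of the 26 higher regions kept their call. Aldh6a1/Lin52, Mob3a/Izumo4, Il9r/Snrnp25 and Nprl3/Hba-x, all on the second array, were among those that fell under the threshold. Mob3a/Izumo4 and Il9r/Snrnp25 also had only 1 of 2 usable probes well above background at 3 months. Nprl3 holds the distant enhancers of the alpha globin genes in its introns, and Hba-x is the embryonic member of that cluster.

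Over the 26 higher regions the median difference was 2.86-fold, 8 were past 4-fold, and in 19 every usable probe was well above background at both ages. Chromosome 11 held 8 of them among 109 measured divergent regions and chromosome 10 held 5 among 61. Both chromosomes are on the second array, where 3.64% of divergent and 2.70% of other autosomal regions were called higher. On the first array these shares were 1.57% and 1.34%. The share over all regions of each chromosome is not given here, so the counts show no concentration on a chromosome. Chromosomes 1, 3, 6, 9, 14, 15, 16 and 18 held no divergent region called higher.

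**Figure D3:**
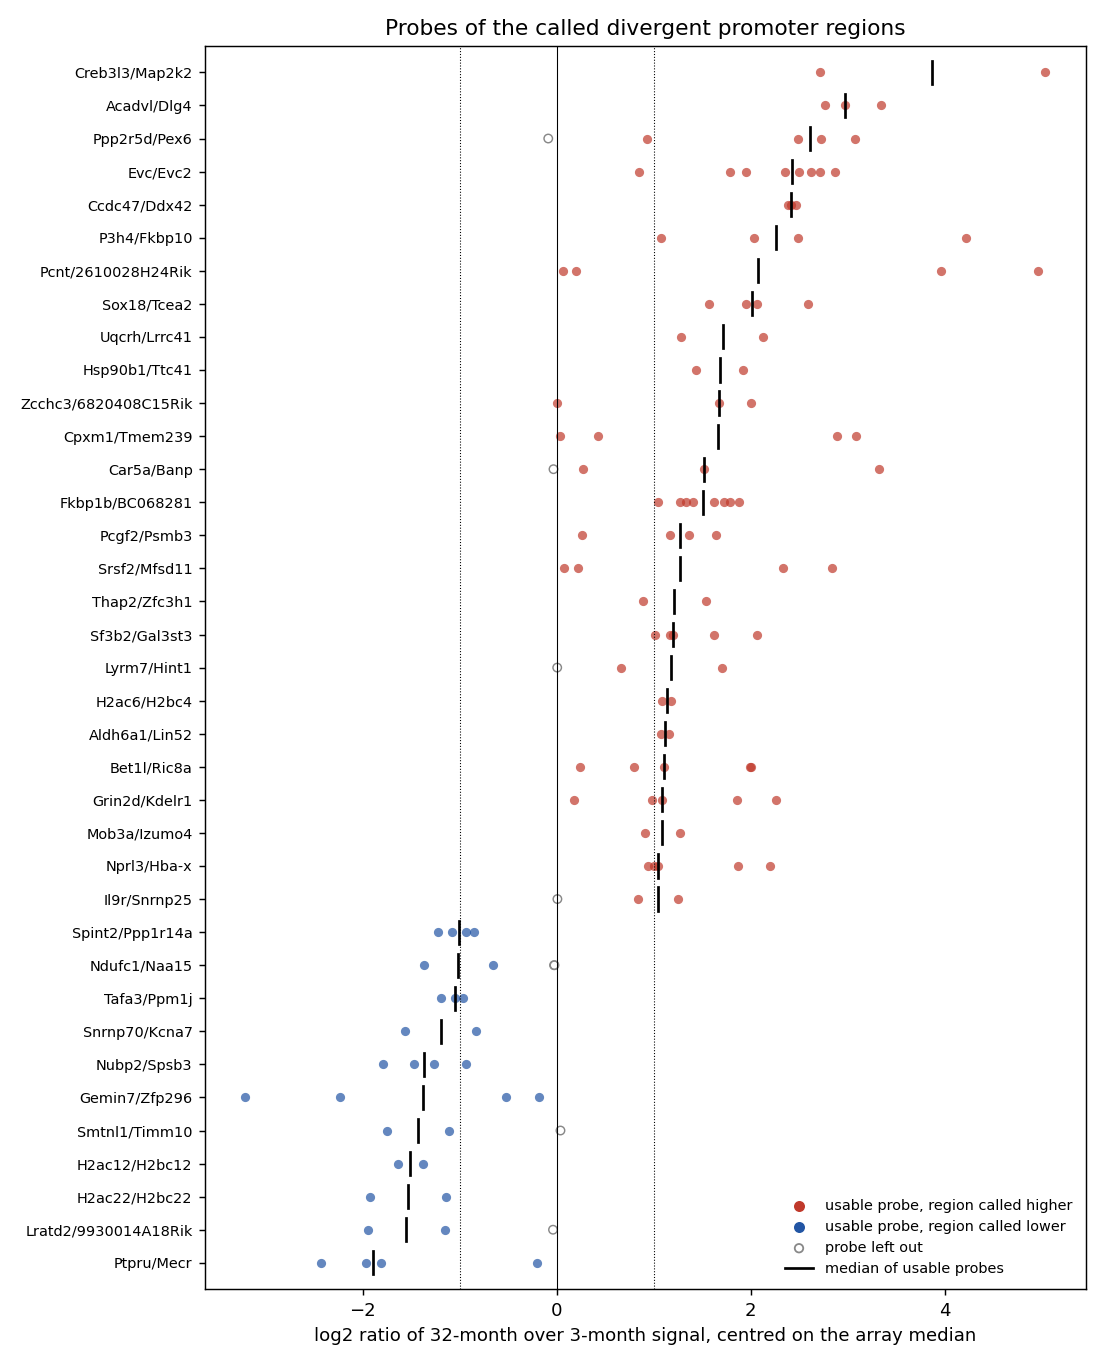
Log2 ratio of 32-month over 3-month signal, centred on the array median, of each probe (points) in the 26 divergent regions called higher (upper rows) and 11 of the 12 called lower (lower rows); black bars are the medians of usable probes, open circles are probes left out as dim, and dotted lines mark the 2-fold threshold. Acadvl/Dlg4, Ccdc47/Ddx42 and Fkbp1b/BC068281 have probes close together, while Pcnt/2610028H24Rik, Cpxm1/Tmem239 and Gemin7/Zfp296 have probes both near 0 and far from it.

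The divergent regions lower at 32 months had a median difference of 2.65-fold, taken as 3-month over 32-month signal, and none was past 4-fold. Ptpru/Mecr stood lowest at -1.89 ± 0.97. Its probes had 157, 67.5, 733 and 95.8 at 32 months, against 614, 362, 838 and 336 at 3 months, and the probe with 733 at 32 months was at -0.20. Gemin7/Zfp296 at -1.38 ± 1.43 split into inner and outer probes. The inner ones had 4760 and 3940 at 32 months against 22300 and 36300 at 3 months, with 5 and 3 CpGs, and the outer ones were at -0.52 and -0.18 with 1 CpG each.

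Nubp2, which takes part in iron-sulphur cluster assembly, and Spsb3, a substrate adaptor of ubiquitin ligases, shared a region at -1.37 ± 0.35. All 4 probes were lower at 32 months, with 1090, 469, 802 and 1830 against 2310, 1430, 3050 and 4840 at 3 months. Tafa3/Ppm1j, a secreted chemokine-like protein and a protein phosphatase, had -1.05 ± 0.11 over 3 probes that hold no CpG, and lost its call after loess. Spint2, an inhibitor of serine proteases needed in intestinal epithelium, and Ppp1r14a, which inhibits myosin phosphatase in smooth muscle, shared a region at -1.01 ± 0.16. Its 4 probes had 2010 to 2770 at 32 months, against 3620 to 6260 at 3 months. Centred on the median of usable probes or after loess, Spint2/Ppp1r14a lost its call.

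Among regions with 2 usable probes, the histone pairs H2ac22/H2bc22 and H2ac12/H2bc12 had -1.53 ± 0.55 and -1.51 ± 0.19. H2ac12/H2bc12 had 1820 and 2080 at 32 months, against 5200 and 7140 at 3 months. Smtnl1/Timm10, of which Timm10 is a chaperone of mitochondrial import, had -1.43 ± 0.45, and lost its call with dim probes kept. Snrnp70, a protein of the U1 small nuclear ribonucleoprotein, and the potassium channel gene Kcna7 had -1.19 ± 0.51 at dim signal, 133 at 32 months against 303 at 3 months. Ndufc1, a subunit of respiratory complex I, and Naa15, part of an N-terminal acetyltransferase, had -1.02 ± 0.51 and lost its call with dim probes kept, after loess or when centred on usable probes. For Lratd2/9930014A18Rik neither usable probe was well above background at 32 months. Its probes had 52.0 and 60.5 at 32 months against 127 and 258 at 3 months, at -1.15 and -1.95. The median of -1.55 ± 0.57, or 2.93-fold, therefore rests on background-level signal at 32 months and is no exact fold. In 10 of the 12 lower regions every usable probe was well above background at both ages.

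A median past 2-fold without agreement of all probes was seen in 8 further divergent regions above and 4 below, as the counts without the agreement rule were 34 and 16. Il23a, the specific subunit of interleukin 23, and the deadenylase gene Pan2 had -1.69 ± 1.28 over 5 probes, with 9881 at 32 months against 23905 at 3 months, but 1 probe stood at 1.00 in the other direction. It was among the brightest divergent regions at 3 months. Apart from Acadvl/Dlg4, the regions named for their brightness were not called. Kirrel2/Nphs1, genes of the slit diaphragm of kidney podocytes, had 35229 at 32 months against 57346 at 3 months and a median of -0.59 ± 0.25 over 9 probes, all of them lower at 32 months. Nyap1/Tsc22d4 had -0.26 ± 0.13, and the region of Wdr91 and of Stra8, which gates entry into meiosis, had -0.14 ± 0.14 over 9 probes. Sec22c/Ss18l2 had 15906 at 32 months against 35513 at 3 months and a median of -0.49 ± 1.15 over 4 probes, of which the lowest stood at -2.75.

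Some pairs have 2 separate measured divergent regions. Of 243 pairs with 2 measured regions, 17 had a called region and none had both called. Across these pairs the Pearson correlation between the regions was -0.037, with 0.029 over 121 pairs on the first array and -0.096 over 122 pairs on the second. These values describe pairs that share an array, its dyes and their samples. Sox18/Tcea2, at 2.01 in the called region, had 0.0017 in its second region, from 181608734 to 181609518 on chromosome 2, with 289 at 32 months and 288 at 3 months. Creb3l3/Map2k2 had -0.018 and Pcnt/2610028H24Rik -0.060 in their second regions. Il9r/Snrnp25 came nearest to moving together, with 1.04 in the called region and 0.76 ± 0.87 in the other. Among lower regions, Gemin7/Zfp296 had -0.74 ± 0.54 in its second region.

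Regions named for 1 gene of the pair and lying within 5000 bp followed the divergent region loosely. Of the 26 higher regions 12 had such a neighbour, 15 neighbours in all, of which 2 were higher and 1 lower by the same rule, and their median was 0.11. Of the 12 lower regions 7 had 9 neighbours, of which none was higher and 1 lower, and their median was -0.31. Beside divergent regions that were not called, 2.35% of 639 neighbours were higher and 0.782% lower, with a median of 0.032. Across 540 divergent regions the Pearson correlation with the mean of their neighbours was 0.21, with 0.12 for array 1 and 0.23 for array 2. Uqcrh/Lrrc41 at 1.71 had a neighbour inside Lrrc41, 238 bp away, at 1.02 ± 0.30. Nubp2/Spsb3 at -1.37 had neighbours at -0.84 ± 0.70 inside Nubp2 and -1.30 ± 0.098 inside Spsb3. Hsp90b1/Ttc41 lay between opposite values. A region inside Hsp90b1, 244 bp on one side, stood at 2.17 ± 0.46, while a promoter region of Ttc41, 164 bp on the other side, stood at -1.74 ± 1.33, and both were called. Around Acadvl/Dlg4 the difference was narrow, with 0.11 ± 0.016 inside Acadvl and -0.039 ± 0.18 inside Dlg4. Evc/Evc2 at 2.43 had -0.44 ± 0.78 inside Evc2 at a distance of 137 bp.

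**Figure D4:**
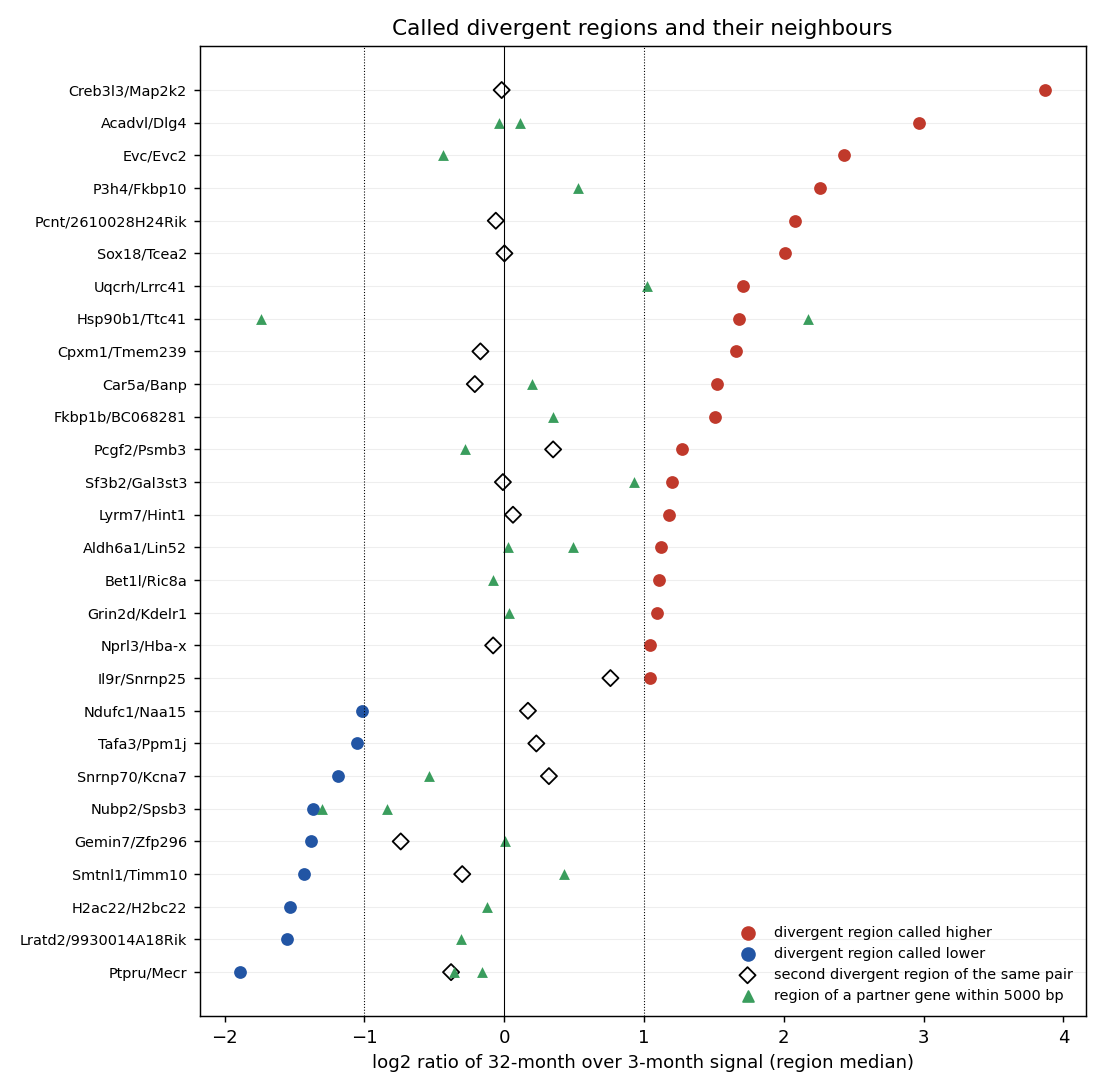
Region medians of the log2 ratio of 32-month over 3-month signal for called divergent regions (filled circles) that have a second divergent region of the same pair (open diamonds) or a region of a partner gene within 5000 bp (triangles); dotted lines mark the 2-fold threshold. Every diamond lies between the dotted lines, and 4 triangles lie beyond them, at Hsp90b1/Ttc41 on both sides, Uqcrh/Lrrc41 and Nubp2/Spsb3.

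Gene groups for which paired promoters are typical were mostly near 0. Their counts stand beside 2.59% called higher and 1.20% lower of all 1004 measured divergent regions. Over all 15353 measured regions the shares were 2.01% and 0.632%. Replication and DNA repair genes had 29 divergent regions, of which 9 were measured and none called, with a median of -0.0078 and the largest absolute value, 0.47 ± 0.20, at Xrcc4/Tmem167. Of 21 measured regions of cytosolic ribosomal protein genes and 17 of mitochondrial ones none was called, with medians of 0.023 and 0.11. Rpl23a/Rab34 had the largest absolute value of the cytosolic ones, -0.69 ± 0.47, and Zfp661/Mrps5 of the mitochondrial ones, -1.20 ± 1.35. Regions of respiratory chain and ATP synthase genes had 1 higher call, Uqcrh/Lrrc41, and 1 lower call, Ndufc1/Naa15, among 22 measured, with a median of 0.020. Proteasome genes had 1 higher call among 10, Pcgf2/Psmb3, at 1.27 ± 0.60 and a list median of 0.18. None of 5 regions of aminoacyl-tRNA synthetase genes, 21 of solute carrier genes or 14 of genes of the RNA polymerase II machinery was called, with medians between -0.030 and 0.0080. S100pbp/Yars at -0.23 ± 0.074, Slc39a6/Elp2 at -0.80 ± 0.16 and Taf11/Anks1 at 0.55 ± 1.13 had the largest absolute values of those lists.

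Histone genes had 1 higher and 2 lower calls among 13 measured regions, with a median of -0.073. The counts of this and the following lists also stand beside 2.59% higher and 1.20% lower of all measured divergent regions. The lower pairs H2ac22/H2bc22 and H2ac12/H2bc12 and the higher pair H2ac6/H2bc4 all lie in the histone cluster of chromosome 13 between 21794678 and 23691650. H2ac6/H2bc4 had 7970 and 11900 at 32 months, against 4110 and 5780 at 3 months. Histone genes have near-identical copies, and whether these probes also match another copy was not tested. Regions of zinc finger genes had 1 lower call among 34, Gemin7/Zfp296, and regions of transmembrane protein genes 1 higher call among 37, Cpxm1/Tmem239. Developmental transcription factors had 17 measured regions, of which Sox18/Tcea2 alone was called, and a median of 0.0017. The 4 measured regions of a short list of DNA methylation and chromatin genes lay between 0.20 and 0.39. All 4 were on the second array, whose divergent regions had a median of 0.078. Aire/Dnmt3l was the highest of them at 0.39 ± 0.40. The list does not cover all chromatin genes, as Ska1/Cxxc1 at -0.325 and the Polycomb pair Pcgf2/Psmb3 at 1.27 were not on it. Pairs filed under the name of a RIKEN or predicted transcript made up 275 measured regions, with 9 higher and 2 lower calls and a median of 0.0043. Many of these names have since become gene symbols, as for Ccdc47 in Ccdc47/Ddx42 and Mfsd11 in Srsf2/Mfsd11, so this list does not stand for uncharacterised transcripts.

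Of well-known bidirectional pairs 9 regions were on the arrays and 5 were measured, none of them called. Brca1/Nbr1 had 408 at 32 months against 438 at 3 months and a median of 0.032 ± 0.20 over 4 probes. Pdcd10/Serpini1 had -0.14 ± 0.70, Gart/Son -0.032 ± 0.85 and Psmb1/Tbp -0.11 ± 0.011. Psmb9/Tap1, an immunoproteasome subunit and a peptide transporter of antigen presentation, had 4580 at 32 months against 2608 at 3 months, at 0.95 ± 0.76 just under the threshold. Markers of cell types had few divergent regions. Of 5 measured regions of intestinal epithelium markers, 3 of immune cell markers and 2 of smooth muscle and stroma markers none was called, and markers of enteric neurons and glia had none on the arrays. Lst1/Ltb, of the immune markers, had 1.04 ± 1.44 with 1 of 4 probes below 0. Cdx1/Pdgfrb, which joins an intestinal transcription factor to a stromal receptor, had -0.46 ± 1.02, and 0.125 in its second region. Both of its regions count among the epithelium markers and are also the whole of the smooth muscle and stroma list.

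**Figure D5:**
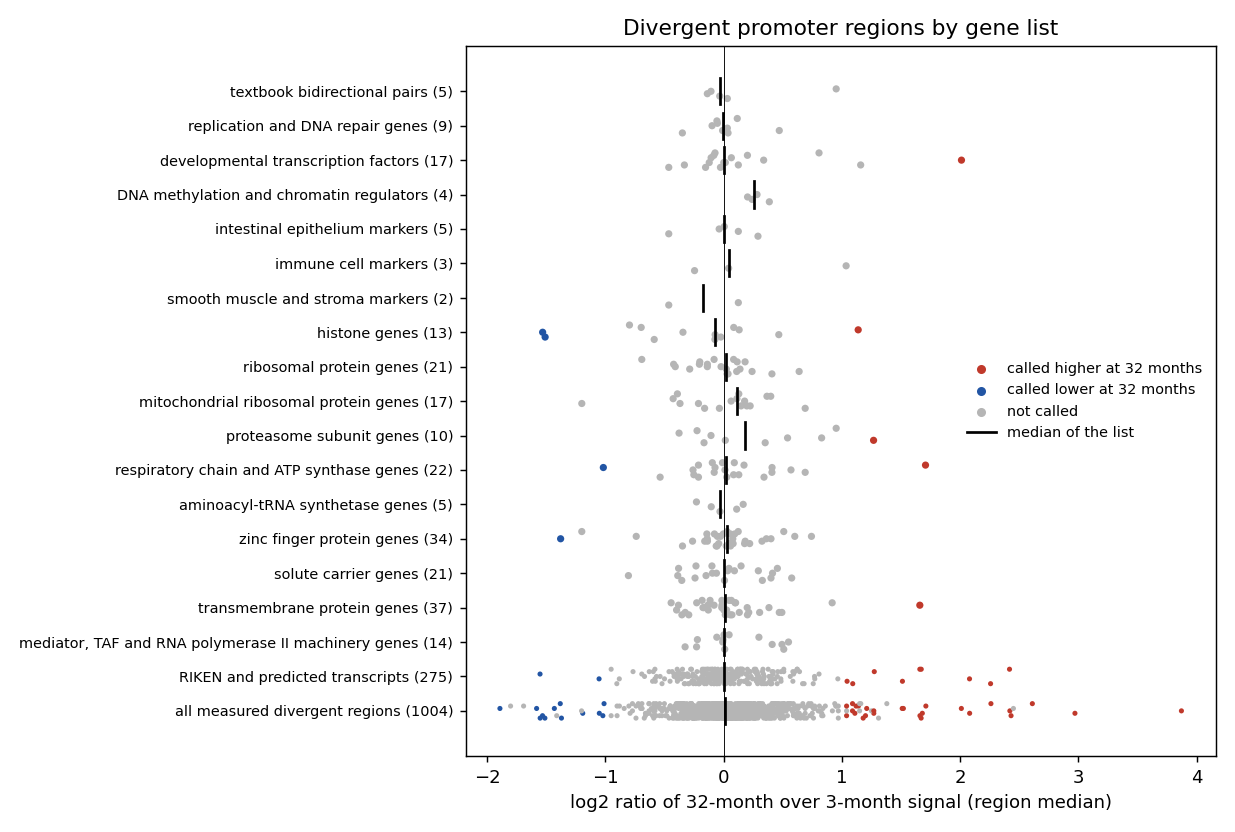
Region medians of the log2 ratio of 32-month over 3-month signal for the measured divergent regions of each gene list, with the number of regions in parentheses; each point is a region, coloured by its call, and black bars are the list medians. List medians run from -0.17 to 0.26, and most points of every list lie between -1 and 1.

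Position and sequence features were compared across the class. Of 770 pairs with both genes in RefSeq's GRCm38.p6 table, 761 were on opposite strands with starts facing away from each other. This is what the class name says. The nearest starts of a pair were used, and starts that overlapped by less than 1000 bp were counted as facing away. The starts of these 761 pairs were a median of 1018 bp apart, and 378 pairs, 49.7%, had at most 1000 bp between them or overlapped. Regions of close pairs were brighter, with medians of 670 at 32 months and 688 at 3 months over 191 regions, against 387 at 32 months and 381 at 3 months over 253 regions of pairs more than 5000 bp apart. Their probes also held more CpGs, a mean of 1.6 against 0.84. Of the close pairs' regions 5 were higher and 3 lower, or 2.62% and 1.57%, and of the distant pairs' regions 9 were higher and 4 lower, or 3.56% and 1.58%. Acadvl and Dlg4 start 1775 bp apart, Evc and Evc2 1597 bp, Nubp2 and Spsb3 41 bp, and H2ac12 and H2bc12 178 bp.

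Divergent probes held a mean of 0.990 CpGs, against 0.790 for promoter probes and 1.21 for probes inside genes, and 44.4% held none. Regions with a mean above 1 CpG per probe had median signals of 556 at 32 months and 546 at 3 months over 388 regions, with 15 higher and 4 lower calls, or 3.87% and 1.03%. The 534 regions above 0 and up to 1 had medians of 351 at 32 months and 362 at 3 months, with 9 higher and 6 lower calls. The 82 regions without any CpG had 2 higher and 2 lower calls. Brightness moved with CpG content, and its part in these shares was not tested.

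RefSeq promoter windows, 250 bases before to 50 after a start, were available for 1797 of the 2243 genes of divergent pairs, and 1282 divergent probes, 26.7%, matched such a window of their own gene letter for letter. The hexamer CCCGGG, which reads the same on both strands and is the recognition sequence of the methylation-sensitive enzyme SmaI and its isoschizomer XmaI, was searched because it is a common basis of methylation assays, and the sources used here do not say whether it played a part in this study. It was present in 17.3% of 2237 windows of divergent genes and in 13.5% of all 32851 windows. Among 257 measured regions with at least 1 window holding it, 9 were higher and 8 lower, or 3.50% and 3.11%, and median signals were 601 at 32 months and 622 at 3 months. Among 675 regions with windows but without it, 15 were higher and 3 lower, or 2.22% and 0.444%, with 374 at 32 months and 373 at 3 months. Brightness differed between these groups as well, and its part was not tested.

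The windows of a higher and a lower pair are printed to show the sequence setting of the starts, in assembly GRCm38.p6 with CpGs in capitals. Ppp2r5d lies on the minus strand at chr17:46704977-46705276 and holds 16 CpGs, and 1 of the 5 probes printed above for this pair matched it letter for letter. Pex6 lies on the plus strand at chr17:46711226-46711525 and holds 22 CpGs, and the starts are 6450 bp apart.
Ppp2r5d promoter: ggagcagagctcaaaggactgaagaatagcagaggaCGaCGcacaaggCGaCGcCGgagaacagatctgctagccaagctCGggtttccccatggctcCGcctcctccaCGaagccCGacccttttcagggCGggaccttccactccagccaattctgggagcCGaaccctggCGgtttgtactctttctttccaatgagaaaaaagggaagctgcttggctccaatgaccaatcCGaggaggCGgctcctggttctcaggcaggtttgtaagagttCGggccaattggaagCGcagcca
Pex6 promoter: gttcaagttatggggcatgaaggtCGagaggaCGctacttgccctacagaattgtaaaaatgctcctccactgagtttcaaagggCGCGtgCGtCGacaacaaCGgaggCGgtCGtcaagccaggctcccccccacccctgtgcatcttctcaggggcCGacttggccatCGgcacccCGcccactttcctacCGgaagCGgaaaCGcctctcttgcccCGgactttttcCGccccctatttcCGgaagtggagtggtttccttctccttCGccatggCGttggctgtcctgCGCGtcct

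Ptpru lies on the minus strand at chr4:131838229-131838528 and holds 40 CpGs, the most of the 4 windows printed. Mecr lies on the plus strand at chr4:131843221-131843520 and holds 17 CpGs. None of the probes of the called Ptpru/Mecr region matched either window. CCCGGG occurs 1 time in the Ptpru window and not in that of Mecr.
Ptpru promoter: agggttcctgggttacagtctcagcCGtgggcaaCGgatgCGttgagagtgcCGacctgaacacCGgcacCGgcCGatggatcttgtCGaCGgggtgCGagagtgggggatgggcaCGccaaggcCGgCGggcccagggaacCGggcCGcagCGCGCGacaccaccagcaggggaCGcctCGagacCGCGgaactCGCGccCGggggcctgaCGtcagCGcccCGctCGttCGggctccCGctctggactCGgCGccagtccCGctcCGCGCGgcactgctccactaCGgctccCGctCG
Mecr promoter: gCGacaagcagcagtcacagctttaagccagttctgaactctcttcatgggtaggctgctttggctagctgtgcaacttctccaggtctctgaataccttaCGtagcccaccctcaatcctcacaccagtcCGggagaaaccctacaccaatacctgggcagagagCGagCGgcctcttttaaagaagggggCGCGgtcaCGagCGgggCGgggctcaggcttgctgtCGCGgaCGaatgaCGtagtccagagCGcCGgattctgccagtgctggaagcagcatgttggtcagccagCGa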

How the data were processed

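DNA from intestine of 32-month-old and 3-month-old mice was measured in 2 channels of 2 arrays, 4 samples in all. The intensity values are the processed signals deposited from Agilent Feature Extraction 9.1.3.1, which per the file headers were corrected for background, detrended and dye-scaled linearly. The mean and background intensity values deposited beside them served for normexp correction, the deposited log10 ratio for an uncentred alternative, and the authors' value table for another. The p-value of each spot in the deposited files, from the scanner's error model per the file headers, was not used. The 2 scanner files of an array were identical, so each channel was used once. Columns that match no sample numbered 0.

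Log2 ratios were computed from the processed signals, centred per array and summarised by region in Python 3.11.15 with pandas 2.3.3. Normexp with an offset of 50 and loess used limma 3.58.1 in R 4.3.3. Brightness is the mean log2 signal of both channels, in 10 bins per array, and other regions were weighted to the bins of the divergent ones. The calls were checked on simulated ratios.

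Named regions are the 12 largest calls per direction with at least 3 usable probes, the 6 largest with 2, the 5 brightest per age, all well-known pairs and, for 19 gene lists, up to 3 called members or else the largest difference. Second and neighbouring regions were named after their values were seen. Members, lists and rules were chosen with earlier results of these data known. Probe positions are those of the files. Of 2243 gene names 1674 were current RefSeq symbols, 509 were older symbols brought up to date and 60 stayed as filed. 1 region called lower is counted but not reported here by name. No test was run between ages.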

Additional observations from a re-analysis of the deposited data

How the results depend on the processing

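No paired analysis was possible because each age has 1 sample per array. Of 31 named called regions 11 kept their call under every alternative run for them, 13 lost it under 1 and 7 under 2 or more, and none changed sign. A region left with too few probes under an alternative, as Creb3l3/Map2k2 was, was not counted as having lost its call there. The authors' value table matched the processed signals within 0.6% for 100% of probes, and no region mixed the class with another. The value table and the class rule of at least 1 probe therefore had to give the same 26 higher and 12 lower calls. A 1.5-fold threshold, or dropping the agreement of probes, could not remove a call either. The same holds for a minimum of 3 usable probes in regions that stayed measured. Normexp correction left 0 lower calls (0%, and 0% of weighted promoter-only regions) and kept 17 of the 26 higher ones. Its medians were 0.094 for divergent regions and 0.088 for weighted other regions, whose shares were 2.74% higher and 0.0553% lower. Its median signals were 333 at 32 months and 151 at 3 months, since it leaves the dye signals unscaled. Without centring, the medians were -0.037 for divergent and -0.034 for weighted other regions, with weighted shares of 1.55% higher and 0.674% lower, and 0.895% lower for promoter-only regions. Centring on usable probes, chosen after seeing the data, gave weighted other regions 1.76% higher and a median of 0.0014. With dim probes kept, median signals were 245 at 32 months and 244 at 3 months, weighted other regions had 1.47% higher, 0.205% lower and a median of 0.00010, and promoter-only regions 0.171% lower. Requiring signal at both ages gave medians of 550 at 32 months and 542 at 3 months. With at least 3 usable probes 17 divergent regions were higher and 6 lower, by fewer regions measured, and weighted others had 0.336% lower. At a 1.5-fold threshold 68 were higher and 37 lower, or 6.77% and 3.69%, against weighted shares of 4.28% and 2.03% of other regions and 6.45% and 2.46% of promoter-only regions. Without agreement of probes weighted others had 2.94% higher and 0.763% lower. Joining at 500 bp gave weighted others 2.26% higher, and means over probes gave them a median of 0.025. In all these settings except normexp, lower calls were a larger share of divergent than of weighted other regions. Depth is limited by signal over background, by the number of arrays and by the lack of a dye exchange.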

Other observations

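Divergent promoter regions also lie on the X chromosome, which was not part of the comparisons above. Of 35 such regions 20 were measured, with a median log2 ratio of -0.24 for 32 over 3 months, and none was called higher and 2 were called lower. All 508 measured regions of the X chromosome had a median of -0.070 with 3 called higher and 20 lower, while the 7310 autosomal regions of the same array had a median of 0.089 with 202 higher and 33 lower. The sex of the animals is not given in the sources used here.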
